A study of Rattus norvegicus with 12 samples.

Results

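Chemokines and their receptors were followed in cells grown from rat bone marrow. The genes were taken by symbol: every probe named as a CC, CXC, CX3C or XC chemokine or as one of their receptors, together with the interleukin 8 receptors, Pf4 and Ppbp, and without Cxcl9, Cxcl10 and Cxcl11. This gave 46 genes (28 ligands and 18 receptors) on 47 probes, of 21684 genes on 22523 probes in all. By the detection p-value, 32 of the 46 (21 ligands and 11 receptors) were measured on both arrays of at least 1 RNA pool, and 15 of these (11 ligands and 4 receptors) in all 6 pools. Over the whole array, 8913 genes passed the same detection rule.

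Chemokines are small secreted proteins that direct migrating cells through receptors coupled to G proteins. CC chemokines mainly attract monocytes, lymphocytes and dendritic cells, while many CXC chemokines attract neutrophils or lymphocytes. In bone marrow, Cxcl12 from stromal cells holds blood stem cells in place through Cxcr4, osteoclast precursors carry Ccr1 and Ccr2, and the transcription factor NF-kappaB switches on many inflammatory chemokines.

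The cells came from tibia and femur marrow of male Wistar-Hannover rats and were grown either to bone-forming osteoblasts or to bone-resorbing osteoclasts. Sham rats had the surgery without cord transection and gave marrow 12 to 14 weeks later. Rats with spinal cord injury (SCI) had a cord transection, then in week 14 the implant operation with ablation of the gastrocnemius but no stimulator, and were sampled at week 17. SCI+FES rats were given a microstimulator in week 14, and functional electrical stimulation (FES) of muscle began in week 16. It ran for 60 minutes on each of 7 consecutive days, in contractions of 2 s with 18 s of rest at 40 Hz and 1.5 V. Per the labels, osteoblasts were cultured to day 10, and the osteoclasts of sham and SCI+FES rats to day 3, with no day stated for SCI osteoclasts. Each of the 6 groups is a single pool of RNA from 3 to 4 animals, put on 2 arrays, so the duplicates are technical and each treatment in a culture type is 1 pool. The sample numbers of the SCI osteoclast pool and of both SCI+FES pools share their digits, and the labels do not say whether those pools share animals. A difference between SCI and sham goes with the implant operation and with the time after surgery, which cannot be told apart from the injury here. A difference between SCI+FES and SCI goes with the implanted stimulator and with the ablation stated for SCI rats. These cannot be told apart from the stimulation, and no sampling week is given here for SCI+FES rats. Since the cells were measured in bulk, fewer cells of a type and less RNA per cell cannot be told apart either.

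Levels below are normalized intensities on the log2 scale, given for array 1 and array 2 of a pool. Between 33.7% and 38.3% of probes were detected per array, the lowest detected level lay between 6.78 and 6.99, and across genes (not independent replicates) the duplicates had r = 0.996 to 0.997. The largest gap of a chemokine or receptor gene between duplicates was 0.64, for Ccr4 in the SCI osteoclast pool. Osteoclast cultures had the protease Mmp9 higher by 6.35 and the proton pump subunit Atp6v0d2 by 4.33 (adjusted p = 2.61e-05 and 2.91e-05 by limma). Of 6 stromal marker genes, 6 were lower in osteoclast cultures. Of 7 osteoblast markers, 5 were detected in the sham, 5 in the SCI and 2 in the SCI+FES osteoblast pool, and 0 in osteoclast pools. Alpl (-3.37) and Ibsp (-2.06) were lower in osteoclast cultures (adjusted p = 0.00795 and 0.0243 by limma). Bglap, Panx3 and Ifitm5 were not called. The osteoblast regulators Runx2 and Sp7 were detected in 0 of 6 pools. All 12 macrophage markers on the array were detected in each osteoblast pool.

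The promoters of 6 ligand genes are shown because, of the detected ligands with a promoter sequence given, these hold a motif of NF-kappaB or of STAT6. STAT6 is a factor activated by interleukin 4. RefSeq (rat assembly GRCr8) gave promoters for 33 of the 46 genes. The detected ligands Ccl2, Ccl3, Ccl4, Ccl5 and Pf4 had none and were not searched. Each line is the 120 bases before the start that the promoter table uses, 5′ to 3′ on the gene's strand. That start is the outermost annotated start of Cxcl1, Cxcl2, Cxcl6 and Ccl7, lies 20 bases inside the gene for Ccl20 and lies 8445 bases inside it for Ccl17, so the Ccl17 line is sequence from within the gene's annotated span. Of the 33 promoters, 20 start at the gene's outermost start and 13 inside the gene. Capitals mark the NF-kappaB consensus, or in Ccl17 the STAT6 site (TTC and GAA parted by 4 bases), each searched on both strands, and a promoter with overlapping matches was counted once.
Cxcl1, chr14:17479322-17479441, minus strand: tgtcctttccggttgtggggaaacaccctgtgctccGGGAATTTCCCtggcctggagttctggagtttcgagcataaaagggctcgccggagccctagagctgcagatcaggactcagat
Cxcl2, chr14:17467256-17467375, minus strand: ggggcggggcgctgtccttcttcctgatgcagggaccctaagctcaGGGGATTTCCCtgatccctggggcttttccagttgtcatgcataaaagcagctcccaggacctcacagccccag
Cxcl6 (the array's Cxcl5), chr14:17596418-17596537, minus strand: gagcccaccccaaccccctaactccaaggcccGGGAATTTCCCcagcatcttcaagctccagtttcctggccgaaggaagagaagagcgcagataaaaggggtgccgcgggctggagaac
Ccl20, chr9:91837039-91837158, plus strand: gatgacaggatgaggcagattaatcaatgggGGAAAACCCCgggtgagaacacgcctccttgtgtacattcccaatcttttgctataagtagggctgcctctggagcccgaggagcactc
Ccl7, chr10:67513975-67514094, plus strand: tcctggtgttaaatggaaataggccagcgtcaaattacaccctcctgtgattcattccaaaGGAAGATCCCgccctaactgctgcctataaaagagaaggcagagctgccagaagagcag
Ccl17, chr19:10209896-10210015, minus strand: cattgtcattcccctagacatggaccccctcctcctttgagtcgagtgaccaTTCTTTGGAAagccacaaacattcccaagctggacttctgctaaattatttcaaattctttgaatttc

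Within 250 bases before the table's start, the NF-kappaB consensus was found in 7 of the 33 promoters, against 6.33% of all 33469 promoters in the table. Those 7 were Cxcl1, Cxcl2, Cxcl6, Ccl20, Ccl7, Ccr3 and the undetected Ccl9. In Cxcl1, Cxcl2, Cxcl6 and Ccl20 the match began 73 to 89 bases before that start, and in Ccl7 59 bases before it. The STAT6 site was found in Ccl17 and in the receptor gene Il8rb (6.25% of all promoters), and the AP-1 site TGANTCA in Ccl7, Ccr3 and Xcr1 (6.34% of all). The windows of Ccr3, Xcr1 and Ccl9 end at starts 36716, 28940 and 51 bases inside those genes. A match describes the letters only.

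To investigate how spinal cord injury was reflected in osteoblast cultures, the SCI pool was set against the sham pool. The monocyte attractants Ccl2, Ccl7 and Ccl12 were each higher, as were the T cell attractant Ccl17, Ccl4 and Cxcl16, while Cxcl13 and Cxcl6 were lower. A gene was counted when the pool means differed at least 2-fold, both arrays of one pool lay above both of the other, and one of the pools had the gene detected on each array. There is no test with 1 pool per treatment, and each difference is given ± the standard error from its duplicate arrays, which leaves out the spread between animals. Of 24 chemokine and receptor genes that could be compared, 6 were higher and 2 lower, against a background of 2.02% higher and 1.41% lower among 8281 genes. Their median difference was 0.35, and that of all genes -0.02.

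In the SCI+FES osteoblast pool more ligands were higher. Between the SCI+FES and SCI osteoblast pools, 9 of 26 genes were higher and 0 lower (background 1.72% and 1.51% of 8189 genes), with a median of 0.82 against 0.01 over all genes. Between the SCI+FES and sham osteoblast pools, 15 of 28 were higher and 0 lower (background 4.27% and 3.29% of 8427 genes), with a median of 1.10 against -0.02. These 3 comparisons share pools and are not independent of each other. In the last comparison the 15 were 14 ligands and the receptor Ccr4, which was not detected in sham, entered the comparison through the SCI+FES pool alone and has a bound of at least 1.44-fold.

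**Figure D1:**
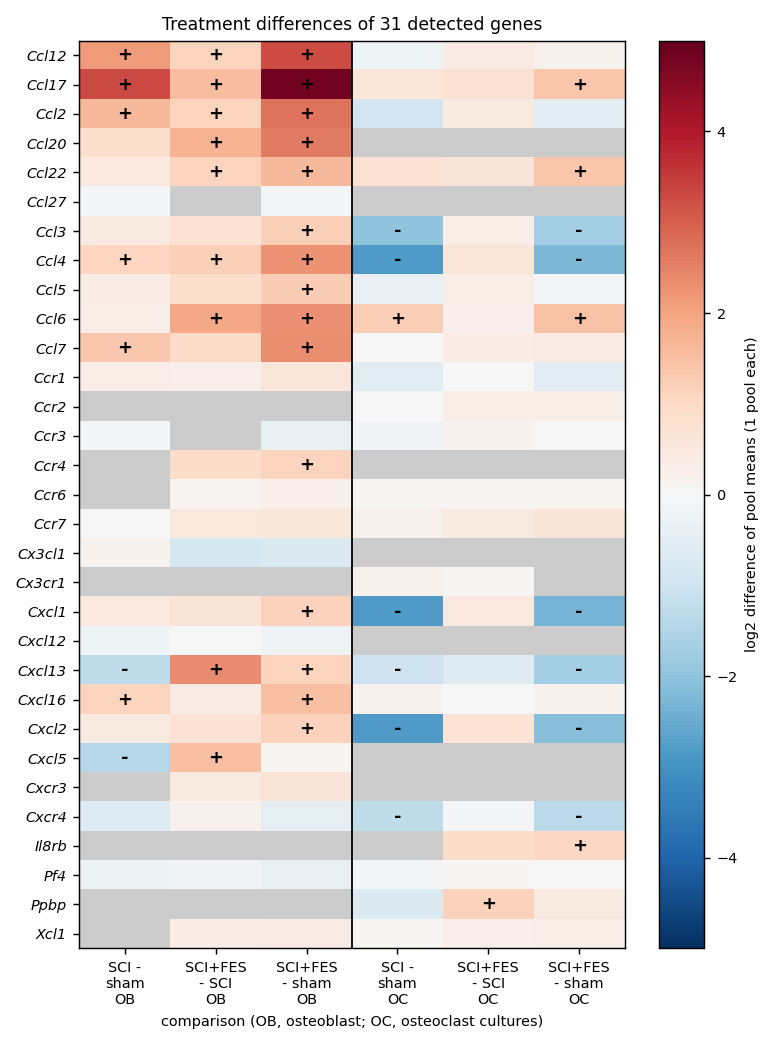
Log2 difference of pool means for 31 of the 32 detected genes (rows, by array symbol) in the 6 treatment comparisons (columns), with + and - for genes past the 2-fold rule and grey where a gene was detected on both arrays of neither pool. The SCI+FES minus sham osteoblast column holds 15 plus signs, and the SCI minus sham osteoclast column 6 minus signs.

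The monocyte attractants act through Ccr2. Ccl2, the main one, read 11.01 and 11.24 in the sham osteoblast pool, 12.78 and 12.67 in the SCI pool and 13.63 and 14.04 in the SCI+FES pool. The 3 pools did not overlap. SCI exceeded sham by 1.60 ± 0.13 (3.04-fold), and SCI+FES exceeded SCI by 1.11 ± 0.21 (2.15-fold) and sham by 2.71 ± 0.23 (6.55-fold). On the first arrays alone the SCI+FES to SCI difference was 0.85 and under 2-fold.

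Ccl12, a monocyte attractant known from the mouse, read 10.80 and 11.06 in the sham, 13.09 and 13.05 in the SCI and 14.15 and 14.21 in the SCI+FES osteoblast pool. Its arrays were ordered in the same way, sham below SCI below SCI+FES. The differences were 2.15 ± 0.13 for SCI minus sham (4.43-fold), 1.10 ± 0.03 for SCI+FES minus SCI (2.15-fold) and 3.25 ± 0.13 for SCI+FES minus sham (9.52-fold). Ccl7, also a Ccr2 ligand in the mouse, read 11.39 and 11.52, 12.79 and 12.80, and 13.84 and 13.70 in the same order. It was higher by 1.35 ± 0.07 in SCI than in sham (2.54-fold) and by 2.32 ± 0.10 in SCI+FES than in sham (4.98-fold), and the step from SCI to SCI+FES was 0.97.

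In osteoclast cultures these ligands showed no such order. There Ccl2 read 13.30 and 13.48 in the sham, 12.43 and 12.45 in the SCI and 12.86 and 12.91 in the SCI+FES pool, so that sham was highest. The Ccl12 probe lay between 13.00 and 13.49 and the Ccl7 probe between 12.29 and 12.88 over the 6 osteoclast arrays, with no 2-fold difference. In the rat table (GRCr8) Ccl2, Ccl7, Ccl11 and Ccl12 are neighbours on chromosome 10 with no other coding gene between them, and Ccl11, an eosinophil attractant, was detected on 0 arrays.

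Ccl17 and Ccl22 are the ligands of Ccr4, a receptor of helper and regulatory T cells. Ccl17 had the largest treatment difference of the 32 genes. It was not detected in the sham osteoblast pool (6.02 and 6.08), and read 9.42 and 9.27 in the SCI and 10.90 and 10.86 in the SCI+FES pool. It was at least 5.86-fold higher in SCI than in sham (3.29 ± 0.08), 2.89-fold higher in SCI+FES than in SCI (1.53 ± 0.08) and at least 17.0-fold higher in SCI+FES than in sham (4.83 ± 0.04). A fold is given as "at least" where arrays of the dimmer pool did not detect the gene and were set to their lowest detected level.

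Osteoclast pools showed the same order for Ccl17 over a smaller range: 7.26 and 7.24 in sham, 7.83 and 7.87 in SCI, and 8.68 and 8.58 in SCI+FES. Ccl22 read 7.43 and 7.53, 8.20 and 8.28, and 8.86 and 8.88 in these pools. For both genes the 3 osteoclast pools were separate. SCI+FES exceeded sham by 1.38 ± 0.05 for Ccl17 (2.60-fold) and by 1.39 ± 0.05 for Ccl22 (2.62-fold), and with arrays scaled to a common median these were 0.95 and 0.96, under 2-fold.

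Ccl22 was not detected in the sham osteoblast pool (6.59 and 6.79) and read 7.17 and 7.23 in the SCI and 8.41 and 8.21 in the SCI+FES pool. The SCI+FES osteoblast pool was therefore higher than SCI by 1.11 ± 0.11 (2.16-fold) and than sham by at least 2.87-fold (1.62 ± 0.14). Without the first arrays the SCI+FES to SCI difference was 0.98 and under 2-fold. Ccr4 itself was detected in the SCI+FES osteoblast pool alone (7.46 and 7.18, against 6.17 and 6.27 in sham and 6.40 on both SCI arrays). It was at least 1.44-fold higher there than in sham (1.10 ± 0.15), and on the second arrays alone the difference was 0.91. The gene between Ccl17 and Ccl22 on chromosome 19 is Cx3cl1, a membrane-bound attractant of monocytes, and its osteoblast values were 7.44 and 7.54 in sham, 7.74 and 7.60 in SCI and 6.90 and 6.67 in SCI+FES.

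T cell markers were measured beside these ligands. Among 8 detected T cell markers, 2 were higher in the SCI than in the sham osteoblast pool and 7 were higher in SCI+FES than in either. Cd4, not among the 7, had means of 8.76, 8.58 and 7.89 in the sham, SCI and SCI+FES osteoblast pools. Cd8a, the brightest of the T cell markers in these pools, had means of 10.78, 10.59 and 12.54. The summed level of the 10 T cell markers on the array, on the linear scale, was 2966, 3325 and 10583 in the sham, SCI and SCI+FES osteoblast pools. Undetected markers are part of these sums, and 3, 8 and 8 of the 10 were detected in these pools. Cd3d, a subunit of the T cell receptor complex, had mean levels of 6.58, 7.98 and 9.86 there, the first below the lowest detected level. In osteoclast pools the sums were 1827, 2014 and 2565, and 1 of 7 T cell markers was higher in SCI+FES than in sham. For the marker counts here and below, 2.02% of all genes were higher for SCI minus sham in osteoblast cultures. The shares there were 1.72% for SCI+FES minus SCI and 4.27% for SCI+FES minus sham. In osteoclast cultures they were 0.966% for SCI minus sham and 1.74% for SCI+FES minus sham.

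Dendritic cell and MHC class II markers summed to 45180, 73481 and 81740 in the osteoblast pools and to 22162, 47226 and 60169 in the osteoclast pools, in the order sham, SCI and SCI+FES. In osteoblast cultures 0 of 6 were higher in SCI than in sham, 0 of 6 in SCI+FES than in SCI and 2 of 6 in SCI+FES than in sham. In osteoclast cultures 5 of 7 were higher in SCI than in sham, and 5 of 7 in SCI+FES than in sham. The 5 were Cd74, RT1-Da, RT1-Ba, Ciita and Batf3. The dendritic cell markers Itgax (osteoclast means of 7.82, 7.28 and 7.32) and Cd83 (12.73, 12.31 and 12.63) were not among them. Flt3, another dendritic cell marker, was detected in no pool. Of 6 mast cell markers on the array, Cpa3, Hdc and Fcer1a were detected in osteoblast pools, and Ms4a2, Tpsab1 and Kit in no pool. The 3 detected were all higher in the SCI than in the sham osteoblast pool. The sums of the 6 were 602, 1146 and 1479 in the sham, SCI and SCI+FES osteoblast pools. The T cell cytokines Il4 and Il13, which induce Ccl17 through STAT6, were detected on 0 arrays. The part of these cell types in the ligand differences was not tested.

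**Figure D2:**
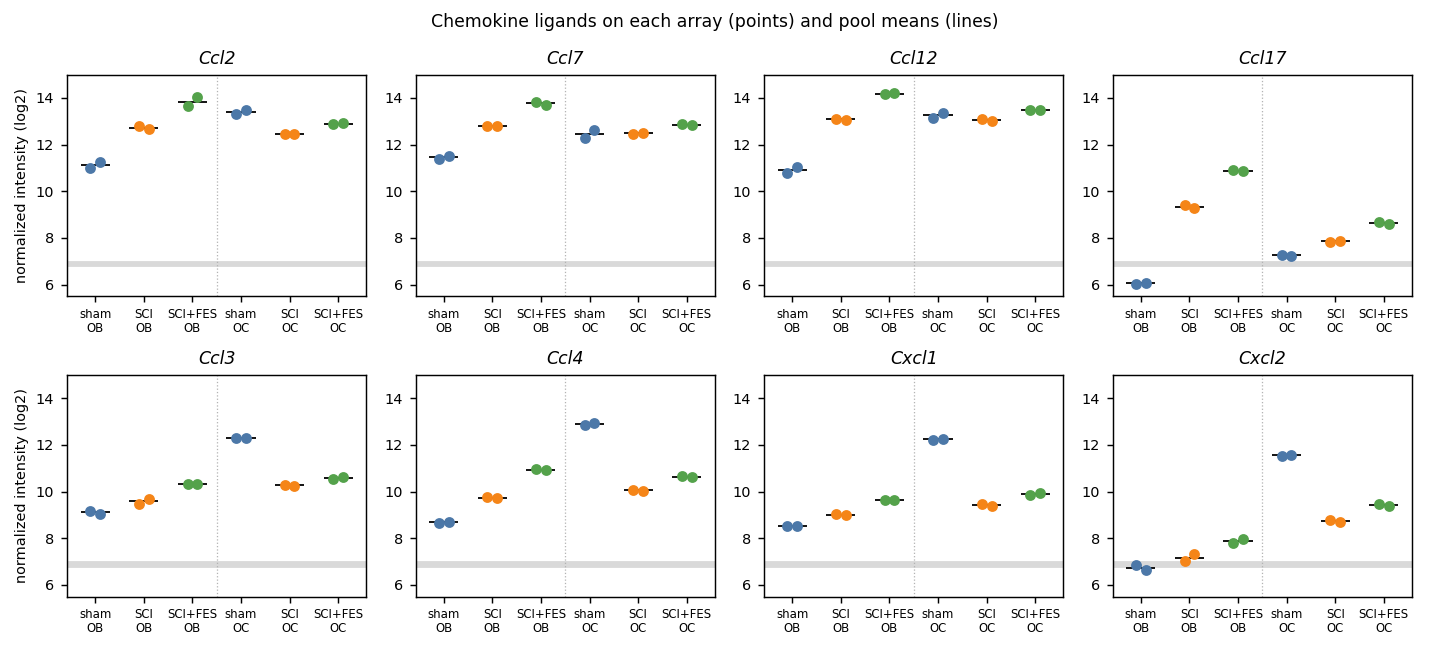
Normalized intensity (log2) of 8 chemokine ligands on each array (points, 2 per pool) with the pool mean (line), for sham, SCI and SCI+FES in osteoblast (OB) and osteoclast (OC) cultures; the grey band spans the lowest detected levels of the arrays, 6.78 to 6.99. The upper row shows the sham osteoblast pool lowest among osteoblast pools, and the lower row shows the sham osteoclast pool highest of all 6, as for Cxcl1 at 12.21 and 12.25.

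The macrophage inflammatory proteins Ccl3 and Ccl4 and the related Ccl5 attract monocytes and T cells, and Ccl3 and Ccl5 are ligands of Ccr1. Their genes, together with Ccl6 and Ccl9, lie side by side on chromosome 10, and Ccl9 was detected on 0 arrays. In osteoclast cultures Ccl4 read 12.84 and 12.94 in the sham, 10.05 and 10.04 in the SCI and 10.64 on both arrays of the SCI+FES pool. The sham pool stood apart from both injured pools. Ccl4 was 7.16-fold lower in SCI than in sham (-2.84 ± 0.05) and 4.74-fold lower in SCI+FES than in sham (-2.24 ± 0.05).

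Ccl3 read 12.31 and 12.28 in the sham, 10.29 and 10.26 in the SCI and 10.54 and 10.63 in the SCI+FES osteoclast pool. It was 4.06-fold lower in SCI (-2.02 ± 0.02) and 3.27-fold lower in SCI+FES (-1.71 ± 0.05) than in sham. In osteoblast cultures sham was the lowest pool for both genes rather than the highest. There Ccl4 read 8.66 and 8.69 in sham, 9.76 and 9.73 in SCI and 10.95 and 10.91 in SCI+FES, with differences of 1.07 ± 0.02 for SCI minus sham (2.10-fold), 1.18 ± 0.02 for SCI+FES minus SCI (2.27-fold) and 2.25 ± 0.03 for SCI+FES minus sham (4.77-fold). The first of these was 0.75 with arrays scaled to a common median.

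For Ccl3 the osteoblast values were 9.17 and 9.05, 9.47 and 9.68, and 10.32 and 10.31, and SCI+FES exceeded sham by 1.20 ± 0.06 (2.30-fold). Ccl5, which attracts T cells and monocytes, read 7.60 and 7.39, 7.84 and 7.86, and 8.78 and 8.70, and SCI+FES exceeded sham by 1.25 ± 0.11 (2.38-fold). The osteoclast arrays of Ccl5 lay between 8.70 and 9.11 with no 2-fold difference.

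Ccl6, a rodent ligand of Ccr1, was higher than in sham in both injured osteoclast pools. In osteoclast pools it read 10.22 and 10.08 in sham, 11.39 and 11.33 in SCI and 11.67 and 11.56 in SCI+FES, so that sham was lowest. SCI exceeded sham by 1.21 ± 0.07 (2.32-fold) and SCI+FES by 1.46 ± 0.09 (2.76-fold), the latter 0.98 with arrays scaled to a common median. In osteoblast pools it read 8.13 and 8.32, 8.53 and 8.58, and 10.45 and 10.56. The SCI+FES pool stood apart there, and the SCI to sham difference of 0.33 was under 2-fold. SCI+FES was 3.85-fold above SCI (1.94 ± 0.06) and 4.84-fold above sham (2.28 ± 0.11).

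The neutrophil attractants Cxcl1 and Cxcl2, which act through Cxcr2, followed Ccl3 and Ccl4. In osteoclast cultures Cxcl1 read 12.21 and 12.25 in sham, 9.45 and 9.38 in SCI and 9.85 and 9.95 in SCI+FES. Cxcl2 read 11.54 and 11.57, 8.78 and 8.70, and 9.45 and 9.36. For both genes the sham pool lay far above the others. Cxcl1 was 7.05-fold lower in SCI (-2.82 ± 0.04) and 5.02-fold lower in SCI+FES (-2.33 ± 0.05) than in sham, and Cxcl2 was 7.03-fold (-2.81 ± 0.04) and 4.43-fold lower (-2.15 ± 0.05).

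In osteoblast cultures Cxcl1 read 8.52 and 8.51, 9.02 and 9.003, and 9.65 on both SCI+FES arrays, and Cxcl2 read 6.83 and 6.64, 7.00 and 7.33, and 7.81 and 7.96. The order from sham to SCI+FES was upward in both. SCI+FES exceeded sham by 1.14 ± 0.01 for Cxcl1 (2.20-fold, and 0.92 with arrays scaled to a common median) and by 1.15 ± 0.12 for Cxcl2 (at least 2.10-fold, and 0.98 on the first arrays alone). Cxcl1 and Cxcl2 are neighbours on chromosome 14, and both printed promoters carry the NF-kappaB consensus.

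Cxcl6, a further Cxcr2 ligand whose promoter carries the same consensus, had another order. It read 7.93 and 8.02 in the sham, 6.55 and 6.54 in the SCI, where it was not detected, and 8.19 and 7.93 in the SCI+FES osteoblast pool. Sham and SCI+FES overlapped, and SCI lay below both. It was at least 2.20-fold lower in SCI than in sham (-1.43 ± 0.05) and at least 2.34-fold higher in SCI+FES than in SCI (1.52 ± 0.13). No osteoclast array detected it.

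Ccl20 attracts dendritic cells and T cells through Ccr6, and its printed promoter also holds the NF-kappaB consensus. In osteoblast pools it read 6.85 and 6.75 in sham, 7.44 and 7.86 in SCI and 9.32 and 9.44 in SCI+FES, and no osteoclast array detected it. The SCI+FES pool exceeded SCI by 1.73 ± 0.22 (3.33-fold) and sham by at least 5.89-fold (2.58 ± 0.08). The 3 pools were in order, and the SCI to sham difference of 0.85 was under 2-fold.

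Genes that induce these chemokines, and the feedback genes of NF-kappaB, were measured beside them. Of this list, 26 of 32 genes were matched on the array. In osteoblast cultures 2 of 16 were higher in SCI than in sham, 5 of 19 in SCI+FES than in SCI, and 8 of 19 in SCI+FES than in sham with 1 lower. Over all genes 2.02%, 1.72% and 4.27% were higher in these comparisons, and 3.29% were lower in the last. The list medians were 0.30, 0.57 and 0.77, against -0.02, 0.01 and -0.02 over all genes. In osteoclast cultures 6 of 19 were lower in SCI than in sham (median -0.66) and 5 of 20 were lower in SCI+FES than in sham (median -0.71), with 0 higher in both. Over all genes 1.87% and 2.42% were lower and 0.966% and 1.74% higher, with medians of 0.02 and 0.00.

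Il1b, a main inducer of inflammatory chemokines, had pool means of 7.82, 10.80 and 11.92 in the sham, SCI and SCI+FES osteoblast pools and of 13.80, 13.14 and 13.26 in the osteoclast pools. Il1a had means of 5.99, 6.97 and 9.33, and of 11.23, 10.08 and 10.47. Both followed the order of Ccl4 in osteoblast cultures, where the sham level of Il1a lay below the lowest detected level. Both had their highest osteoclast level in sham, but Il1b differed less than 2-fold between the osteoclast pools. Nfkbia, the NF-kappaB inhibitor that the factor itself induces, had means of 10.80, 11.76 and 12.35, and of 13.20, 12.54 and 12.54.

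Macrophages make many of these ligands. Their 12 markers on the array summed to 91164, 85242 and 117060 in the sham, SCI and SCI+FES osteoblast pools and to 66811, 65303 and 68571 in the osteoclast pools. In osteoblast cultures 0 of 12 were higher in SCI than in sham and 3 of 12 in SCI+FES than in sham. In osteoclast cultures 3 of 11 macrophage markers were higher in SCI and 4 of 11 in SCI+FES than in sham, and 0 were lower. Stromal markers summed to 3246 in the sham osteoclast pool and to 969 and 901 in the SCI and SCI+FES osteoclast pools. Of 5, 3 were lower than in sham in each (1.87% and 2.42% over all genes). In the osteoblast pools stromal markers summed to 101599, 91969 and 74068. The part of macrophages in the ligand differences, and of stromal cells in the osteoclast differences, was not tested.

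Cxcl12 and Cxcl13 are known mainly for placing cells in healthy tissue. Cxcl12 read 13.62 and 13.53 in the sham, 13.45 and 13.30 in the SCI and 13.42 and 13.39 in the SCI+FES osteoblast pool, a range of less than 2-fold. The 3 pools of this stromal ligand were thus close together. Osteoclast arrays read 6.39 to 7.06, and 1 of 6 detected it, in the sham pool.

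Cxcl13, which attracts B cells through Cxcr5, was ordered in its own way. In osteoblast pools it read 11.49 and 11.22 in sham, 10.04 and 10.13 in SCI and 12.46 and 12.47 in SCI+FES. SCI was lowest and SCI+FES highest, with differences of -1.27 ± 0.14 for SCI minus sham (2.41-fold lower), 2.38 ± 0.05 for SCI+FES minus SCI (5.21-fold) and 1.11 ± 0.13 for SCI+FES minus sham (2.16-fold, and 0.98 on the first arrays alone). In osteoclast pools it read 10.03 and 10.07, 9.05 and 8.99, and 8.51 and 8.22. There it was lower in SCI (-1.03 ± 0.04, and -0.98 on the first arrays alone) and in SCI+FES (-1.68 ± 0.15, 3.21-fold) than in sham. Cxcr5 was detected on 0 arrays, and of 4 B cell markers 0 were detected in the osteoblast pools.

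In osteoblast cultures the osteoblast markers moved opposite to Cxcl13 between SCI and the other 2 treatments. Of the detected ones, 5 of 5 were higher in SCI than in sham and 5 of 5 lower in SCI+FES than in SCI. Over all genes 2.02% were higher and 1.51% lower in these comparisons. Between SCI+FES and sham 3 of 5 were lower (3.29% over all genes), and Ibsp had means of 7.92 in sham and 8.06 in SCI+FES. The summed level of the osteoblast markers was 2154, 10030 and 1107 in sham, SCI and SCI+FES. The part of osteoblasts in the Cxcl13 difference was not tested.

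Cxcl16, a membrane-bound ligand of Cxcr6, read 8.70 and 8.79 in the sham, 9.71 and 9.998 in the SCI and 10.03 and 10.48 in the SCI+FES osteoblast pool. Sham was lowest, by 1.11 ± 0.15 against SCI (2.16-fold, and 0.79 with arrays scaled to a common median) and by 1.51 ± 0.23 against SCI+FES (2.85-fold). Averaged with its other probe, which no array detected, the differences were 0.63 and 0.87 and under 2-fold. Osteoclast arrays lay between 9.55 and 9.92.

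**Figure D3:**
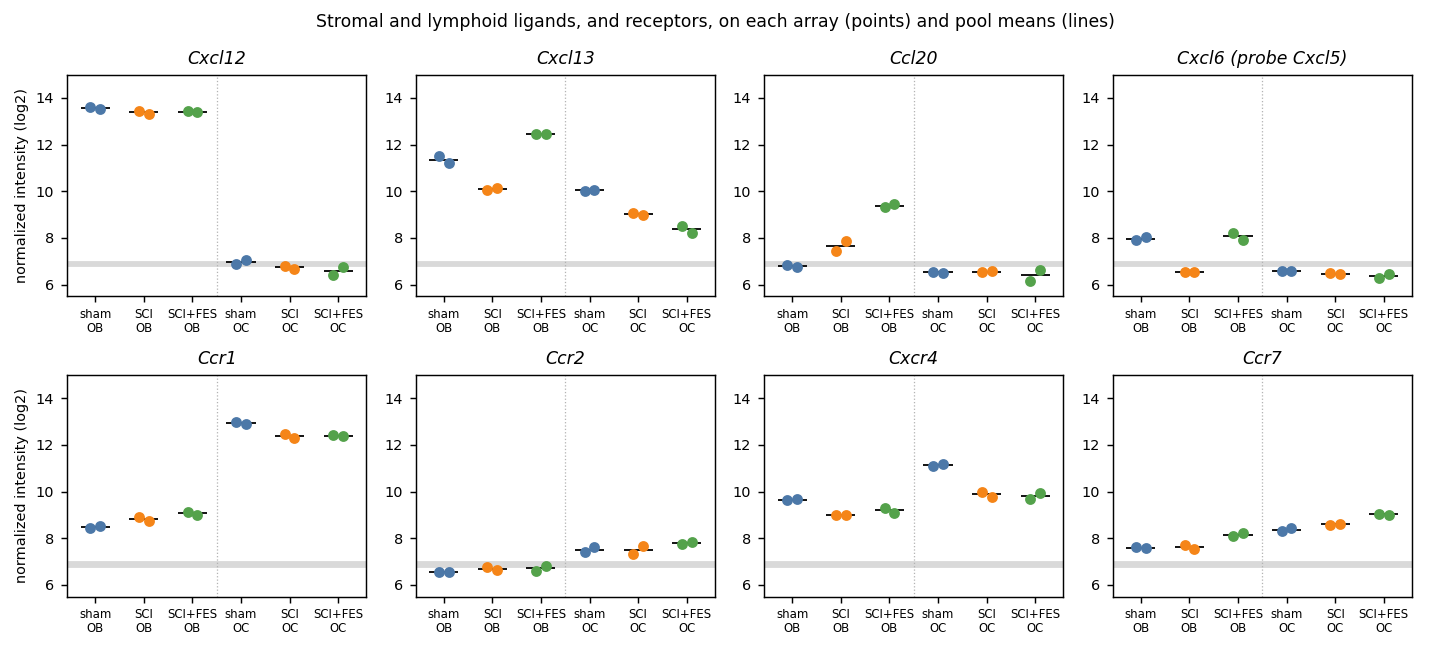
Normalized intensity (log2) of 4 stromal and lymphoid ligands (upper row) and 4 receptors (lower row) on each array (points) with the pool mean (line), with the lowest detected levels of the arrays as a grey band. Cxcl12 lies above 13 in all osteoblast pools and near the band in osteoclast pools, while Ccr1 lies at 12.31 to 12.98 on osteoclast arrays and at 8.43 to 9.14 on osteoblast arrays.

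Between the SCI+FES and SCI osteoclast pools, Ppbp alone passed the 2-fold rule. Ppbp, which is stored in platelet granules and cut to a neutrophil attractant, read 7.95 and 7.88 in the sham, 7.18 and 7.20 in the SCI and 8.34 and 8.35 in the SCI+FES pool. The 3 pools were separate, with SCI lowest. It was 2.23-fold higher in SCI+FES than in SCI (1.16 ± 0.01), and 0.82 with arrays scaled to a common median. In that comparison 1 of 25 genes was higher and 0 lower (background 0.309% higher and 0% lower of 7442 genes), and the median was 0.31 against -0.01 over all genes.

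The platelet marker Gp9 had means of 7.26, 6.64 and 7.79 in the sham, SCI and SCI+FES osteoclast pools, higher by 1.15 in SCI+FES than in SCI, while Gp5 was not detected. Pf4, also a platelet chemokine and the neighbour of Ppbp, ran between 13.91 and 14.11 on the osteoclast and between 14.16 and 14.68 on the osteoblast arrays, with no 2-fold difference. The part of platelet-forming cells in the Ppbp difference was not tested.

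In osteoclast cultures as a whole, SCI differed from sham by 1 higher and 6 lower of 24 genes (background 0.966% and 1.87% of 7664 genes), with a median of -0.18 against 0.02 over all genes. SCI+FES differed from sham by 4 higher and 6 lower of 24 (background 1.74% and 2.42% of 7646 genes), with a median of 0.09 against 0.00. The lower genes were Ccl3, Ccl4, Cxcl1, Cxcl2, Cxcl13 and Cxcr4 in each, and both comparisons use the same sham pool. Of the genes called for SCI+FES against sham, 8 were called in both culture types (of 15 in osteoblast and 10 in osteoclast cultures). Over all genes these were 112, or 17.6% of the 637 called in osteoblast and 35.2% of the 318 called in osteoclast cultures. Of the 8, Ccl6, Ccl17 and Ccl22 were higher in both. For SCI against sham, Ccl4 and Cxcl13 were called in both culture types (of 8 and of 7), and over all genes 42 were (14.8% of 284 and 19.4% of 217).

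Of the 11 detected receptors, Ccr4, Cxcr4 and Il8rb passed the 2-fold rule between treatments. Cxcr4, the receptor of Cxcl12, read 11.09 and 11.17 in the sham, 9.98 and 9.78 in the SCI and 9.69 and 9.95 in the SCI+FES osteoclast pool. Sham was highest, and SCI (-1.25 ± 0.11, 2.39-fold) and SCI+FES (-1.31 ± 0.14, 2.48-fold) were lower. Its osteoblast values were 9.65 and 9.66, 8.997 on both SCI arrays, and 9.31 and 9.09, also with sham highest but under 2-fold.

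Il8rb, the array's name for Cxcr2, the neutrophil receptor of Cxcl1 and Cxcl2, was detected in the SCI+FES osteoclast pool alone. It read 7.58 and 7.82 there, against 6.64 and 6.66 in sham and 6.77 and 6.78 in SCI. The difference from sham was 1.05 ± 0.12 (at least 1.70-fold), with 0.94 on the first arrays alone and 0.72 with arrays scaled to a common median. Neutrophil markers summed to 2331, 3152 and 6675 in the sham, SCI and SCI+FES osteoclast pools, and S100a8, an abundant neutrophil protein, had means of 9.31, 9.83 and 12.00. Of 5 neutrophil markers that could be compared, S100a8 alone was higher in SCI+FES than in sham. Its partner S100a9 was detected on 0 arrays, and the granule genes Camp (7.45 in sham and 7.36 in SCI+FES) and Mpo (6.98 and 7.01) stood close in both pools. The part of neutrophils in the Il8rb difference was not tested.

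The receptors Ccr1 and Ccr7 were also detected in all pools and differed less than 2-fold between treatments. Ccr7, which guides dendritic cells to lymph nodes, read 7.54 to 8.21 on osteoblast and 8.30 to 9.04 on osteoclast arrays, with SCI+FES highest in both culture types.

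To compare the culture types, the 3 osteoclast pools were tested against the 3 osteoblast pools with limma, at an adjusted p of at most 0.05 over 8913 genes and a difference of at least 2-fold. Treatments are mixed in both sides, and culture day differs with culture type where the labels give it. Of the 32 genes, 3 were higher (Ccr1, Cxcl2 and Ppbp) and 2 lower (Cxcl12 and Cxcl13) in osteoclast cultures, close to the background of 4.91% higher and 6.7% lower over all genes. The median was 0.44 against 0.07 over all genes.

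Ccr1, a receptor of osteoclast precursors and macrophages, rose by 3.79 ± 0.21 (13.8-fold, adjusted p = 6.6e-05). Its 6 osteoclast arrays lay between 12.31 and 12.98 and its osteoblast arrays between 8.43 and 9.14. Cxcl12 fell by 6.70 ± 0.14 (at least 89.0-fold, adjusted p = 3.71e-06). Both differences were called under all 18 alternatives.

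The calls of Cxcl2, Ppbp and Cxcl13 were lost when single pools were left out. Cxcl2 rose by 2.64 ± 0.71 (at least 6.11-fold, adjusted p = 0.0315 by limma), and its adjusted p was 0.0772 without the sham osteoblast, 0.0973 without the SCI osteoblast and 0.0608 without the SCI+FES osteoclast pool, and 0.0501 with no detection filter. Ppbp, detected on 0 osteoblast arrays, rose by 1.21 ± 0.28 (at least 2.01-fold), adjusted p = 0.0188 by limma, and p was 0.0624 without the SCI osteoblast pool and 0.0560 without the sham osteoclast pool, and without the SCI+FES osteoclast pool its difference was 0.94, under 2-fold. Cxcl13 fell by 2.16 ± 0.65 (4.47-fold, adjusted p = 0.0470 by limma), and this call held under 8 of 18 alternatives. Its adjusted p by limma was 0.0501 with neqc, 0.0531 with log2 of the signal plus 16, 0.0507 with a common median, 0.0508 at a detection p of at most 0.05, 0.0763 with no detection filter and 0.0522 when treatment was a block. It was 0.0864 to 0.134 without the sham osteoblast, SCI+FES osteoblast, SCI osteoclast or SCI+FES osteoclast pool.

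**Figure D4:**
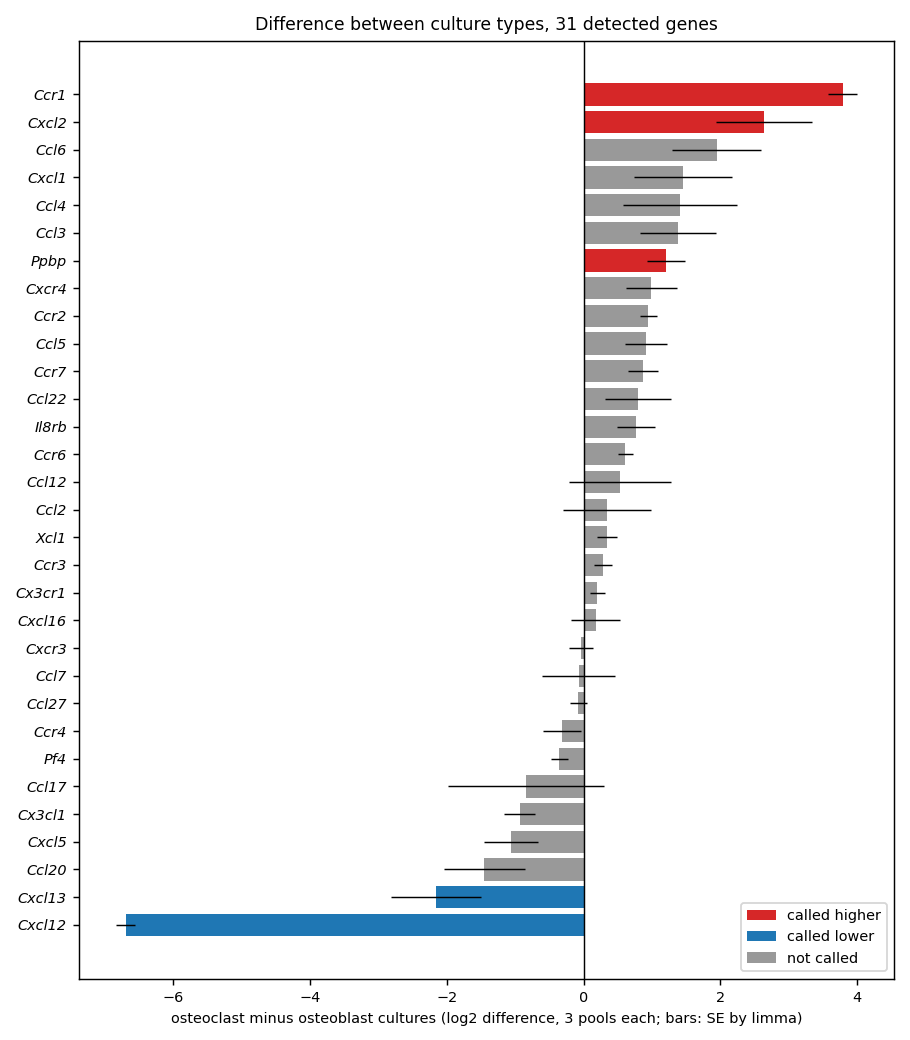
Log2 difference of osteoclast minus osteoblast cultures for 31 of the 32 detected genes (array symbols), 3 pools each, with the standard error by limma as bars; red marks the 3 genes called higher, blue the 2 called lower. Ccr1 stands at 3.79 and Cxcl12 at -6.70.

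The receptors Ccr2, Ccr6 and Ccr7 passed the adjusted p at under 2-fold, and Cx3cr1 (0.20, adjusted p = 0.212 by limma) did not pass. Ccr2, the receptor of Ccl2, was higher in osteoclast cultures by 0.95 ± 0.12 (adjusted p = 0.00190 by limma), Ccr6 by 0.61 ± 0.11 (0.00797) and Ccr7 by 0.86 ± 0.22 (0.0271). Cx3cl1, detected on 0 osteoclast arrays, was lower by 0.93 ± 0.23 (at least 1.29-fold, adjusted p = 0.0237 by limma). Ccr2 was detected on 6 of 6 osteoclast arrays and on 1 of 6 osteoblast arrays, and its osteoclast values ran from 7.34 to 7.82. Over the 18 alternatives the Ccr2 difference ran from 0.80 to 1.84, past 2-fold in some, with an adjusted p by limma of at most 0.0113. The highest adjusted p by limma was 0.0850 for Ccr6, 0.0966 for Ccr7 and 0.0828 for Cx3cl1, so these did not pass under every alternative.

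Ccl3, Ccl4, Ccl6 and Cxcl1 had differences of 1.38, 1.41, 1.95 and 1.45 and did not pass (adjusted p = 0.107, 0.242, 0.0638 and 0.170 by limma), and for each the pools of the culture types overlapped. Their SD between osteoclast pools was 0.78 to 1.51. Ccl20 (-1.45, adjusted p = 0.109) did not pass either. For Ccl2, Ccl7 and Ccl12 the osteoblast pools spanned the osteoclast pools, with differences of 0.34, -0.07 and 0.53.

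Of 27 detected genes of chemokine receptor signalling, 5 rose in osteoclast cultures and 0 fell, against the background of 4.91% and 6.7% (median 0.38, and 0.07 over all genes). The 5 were Rac2, a GTPase of migrating blood cells (2.13), Tiam1 (2.03), an activator of Rac, the kinase Ptk2b (1.24), the Rac activator Vav1 (1.12) and the phospholipase Plcb2 (1.04). Against the sham osteoblast pool, 2 of 25 were higher in SCI (background 2.02%) and 3 of 25 in SCI+FES (background 4.27%). Against the sham osteoclast pool, 1 of 26 was lower in SCI (background 1.87%) and 1 of 26 in SCI+FES (background 2.42%). Of a list of further receptors of chemoattractants, Ccrl2, Cmklr1 and Pitpnm3 were matched on the array, and Ackr1, Ackr2 and Ackr4 were not. Ccrl2, an atypical receptor without G protein signals, was the only matched one detected on both arrays of a pool. It rose in osteoclast cultures (2.15, adjusted p = 0.0277 by limma) and was lower in SCI (-1.96) and in SCI+FES (-2.23) than in the sham osteoclast pool, as Ccl3, Ccl4, Cxcl1 and Cxcl2 were.

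The remaining genes were near the detection limit. Ccl27, Xcl1, Ccr3, Cx3cr1 and Cxcr3 were detected in 1 to 3 pools, read 6.33 to 7.37 on all arrays and had no 2-fold difference. Xcl1 attracts dendritic cells that carry Xcr1, Ccr3 is the eosinophil receptor, and Cxcr3 is a receptor of effector T cells. Cxcr3 was detected in the SCI+FES osteoblast pool alone (7.04 and 7.21). Of the 14 untested genes, Ccl25 was detected on 4 arrays and Ccr9, its receptor, on 2, never on both arrays of a pool. The other 12, Ccl9, Ccl11, Ccl19, Ccl21b, Ccl28, Cxcl3, Ccr1l1, Ccr8, Cxcr5, Cxcr7 (Ackr3 in RefSeq), Il8ra (Cxcr1) and Xcr1, were not detected on any array.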

How the data were processed

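RNA of 6 pools (3 to 4 animals each) was measured on 12 Illumina rat arrays of 1 chip, 2 per pool. Per the file headers, the deposited scanner table holds intensity values for 22523 probes on every array. Of these, 26.8% to 30.4% per array were negative, which means that background was subtracted before deposit, with software that the labels do not name. Detection p-values were deposited beside them, in multiples of 1 over 825. In the authors' series matrix each array's intensity is the scanner value times a slope plus a shift (r = 1, slopes of 0.731 to 1.42, column medians of 13.8 to 19.1, linear scale). The rule behind slope and shift is unknown. It served as an alternative.

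Intensities were corrected with normexp (offset 50, which understates the folds of dim genes), quantile normalized and put on the log2 scale with limma 3.58.1 in R 4.3.3. Further steps used Python 3.11.15, numpy 2.4.6, pandas 2.3.3 and matplotlib 3.10.9. Gene names are the file's symbols, with current names from RefSeq (GRCr8), and 117 probes had none. The brightest probe stood for each of 785 genes with several. A gene was tested if, in at least 1 pool, both arrays had a detection p of at most 0.01. Culture types were compared with limma on 6 pool means, with Benjamini-Hochberg adjustment. Treatment comparisons (1 pool each) have no test, and p-values between culture types measure the spread between pools. The number of pools limits the precision. Every array value is given for genes past the limma call or the 2-fold rule, and the others are given by range. Some items are not reported here, although counts include them. The genes and lists were chosen with earlier results of these data known. The code was tested on simulated data. Arrays and pools left out in turn, other background corrections, scalings, filters, probe rules and thresholds were tried as alternatives.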

Additional observations from a re-analysis of the deposited data

Results flagged for a closer look

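Several ligands were past the 2-fold rule in opposite directions in the 2 culture types, with every array of one pool above every array of the other in each. The difference between the culture types was not tested, since each treatment in a culture type is 1 pool. Over all genes, calls in opposite directions were not counted apart from those in the same direction. For SCI minus sham, Ccl4 was 1.07 in osteoblast and -2.84 in osteoclast cultures. For SCI+FES minus sham, Ccl4 was 2.25 and -2.24, Ccl3 1.20 and -1.71, Cxcl1 1.14 and -2.33, Cxcl2 1.15 and -2.15, and Cxcl13 1.11 and -1.68 in osteoblast and osteoclast cultures. In each pair of values the first is the osteoblast difference on the log2 scale.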

How the results depend on the processing

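Of 50 named treatment differences, 35 kept their call under every alternative run and 0 reversed. Arrays scaled to a common median ended 8 calls, which the report names beside each gene, and moved the median of all genes to -0.22 for SCI minus sham and -0.16 for SCI+FES minus sham in osteoblast cultures, and to -0.35 for SCI+FES minus SCI and -0.40 for SCI+FES minus sham in osteoclast cultures. With that scaling the share of higher calls over all genes went from 58.8% to 30.7%, 56.5% to 41.0%, 100% to 81.2% and 41.8% to 6.7% in these comparisons, from 53.2% to 63.4% for SCI+FES minus SCI in osteoblast cultures, from 34.1% to 22.3% for SCI minus sham in osteoclast cultures and from 42.3% to 31.2% between culture types. Counts of chemokine and receptor genes moved with it to 0 higher and 1 lower for SCI+FES minus SCI and to 0 higher for SCI+FES minus sham in osteoclast cultures.

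Between culture types, the number of chemokine and receptor genes called higher (3) was 6 with neqc, 7 with log2 of the signal plus 16, 6 with the 12 arrays and the pool as a random block and 6 with no minimum size. The number lower (2) was 1 at a detection p of at most 0.05, 1 with no detection filter, 1 with treatment as a block and 4 with the random block. Leaving out 1 pool gave 1 to 6 higher and 1 to 3 lower. Over all genes, 438 higher became 675 with neqc and 701 with log2 plus 16, and 438 higher and 597 lower became 1444 and 1208 with no minimum size.

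With neqc, and with log2 plus 16, 1 gene was lower for SCI+FES minus SCI and 1 for SCI+FES minus sham in osteoblast cultures, and 2 were higher for SCI minus sham and 2 for SCI+FES minus SCI in osteoclast cultures. The matrix values gave 1 lower for SCI+FES minus SCI in osteoblast and 2 higher in osteoclast cultures. Leaving out an array of each pool gave 1 to 2 higher for SCI+FES minus SCI in osteoclast cultures. At 1.5-fold, 16 were higher and 1 lower for SCI+FES minus SCI and 1 lower for SCI+FES minus sham in osteoblast cultures, and 3 were higher for SCI minus sham, and 6 higher and 1 lower for SCI+FES minus SCI, in osteoclast cultures. Over all genes, neqc gave 309 higher and 227 lower for SCI minus sham, 242 and 259 for SCI+FES minus SCI and 564 and 523 for SCI+FES minus sham in osteoblast cultures, and 190 and 295, 63 and 10, and 316 and 384 in osteoclast cultures. The cause of these changes was not tested, beyond the lower threshold and the smaller offset admitting smaller changes. No paired analysis was possible because the replicate numbers mark the duplicate arrays of 1 pool. Levels under 6.78 to 6.99 lie below detection.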
